A study of Homo sapiens with 9 samples.

Results

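The set held 41 genes that have been reported as repressed by MYC, from cell-cycle inhibitors such as CDKN1A to matrix genes such as TGFBI. They were followed in MCF10A, an immortalized line of human breast epithelial cells that carried ectopic MYC and a mutant PI3K (H1047R). Membership was a fixed list of symbols, and no value from these libraries entered its rule. The list was, however, chosen with earlier results of these data known. All 41 were found among 60308 gene IDs, and 35 of them passed the filter on low counts, as did 18435 genes in all. The tested cells expressed either of 2 doxycycline-inducible short hairpins against G9a, named shG9a_1 and shG9a_4, and the control cells expressed a scrambled hairpin, shSCR. Each hairpin was given as 3 biological replicates, 9 libraries in all. Every group carried the MYC and PI3K plasmids and a hairpin vector with a puromycin marker, and every group received doxycycline at 2 μg/mL for 72 hours, so neither cells without ectopic MYC nor uninduced cells entered the comparisons. MYC reads could come from the endogenous gene or from the plasmid.

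MYC is a transcription factor that pairs with MAX and activates genes through the E-box sequence CACGTG. It also lowers the output of other genes, mainly those that stop the cell cycle, hold cells in place or carry TGF-beta signals, and it has been described as doing so at core promoters together with MIZ1 (the product of ZBTB17), SP1 or NF-Y. G9a, encoded by EHMT2, is a methyltransferase that places repressive methyl groups on lysine 9 of histone H3. The series addressed whether lowering G9a changes genes that MYC holds down.

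Promoter windows from 250 bases before to 50 bases after a gene's start were read from RefSeq (GRCh38.p14) for 33 of the 41 genes, and none was matched for CDKN1C, GADD45A, NDRG1, CCND1, CEBPD, SFRP1, FBXO32 and TP53INP1. Some genes had several starts, so the 33 genes gave 60 windows. The E-box CACGTG was in 9 of the 60 windows (15%) and in 7.26% of all 35116 windows. The CCAAT sequence, the motif of NF-Y, was in 27 member windows (45%) on either strand, and in 34.6% of all windows. The GC box GGGCGG, the motif of SP1, was in 40 member windows (66.7%) on either strand, and in 45% of all windows. These shares count windows, so genes with several starts weigh more. Counted by gene, 8 of the 33 had an E-box in some window, 20 a CCAAT and 27 a GC box. The same count by gene was not made over all genes. These matches are descriptions of the letters in each window and not evidence of a bound factor. The windows below belong to the 4 genes whose 3 shG9a_1 libraries all lay above the 3 shSCR libraries (CDKN1A, BTG1, ARRDC4 and DUSP1), to TXNIP, the close relative of ARRDC4, and to DUSP2, which was lower with both hairpins. Each is printed 5′ to 3′ on the strand of its gene, and capitals mark these 3 motifs on either strand, with no overlap between different motifs. On the other strand CCAAT reads ATTGG. A GC box on that strand reads CCGCCC.
CDKN1A (chr6:36678464-36678763, plus strand): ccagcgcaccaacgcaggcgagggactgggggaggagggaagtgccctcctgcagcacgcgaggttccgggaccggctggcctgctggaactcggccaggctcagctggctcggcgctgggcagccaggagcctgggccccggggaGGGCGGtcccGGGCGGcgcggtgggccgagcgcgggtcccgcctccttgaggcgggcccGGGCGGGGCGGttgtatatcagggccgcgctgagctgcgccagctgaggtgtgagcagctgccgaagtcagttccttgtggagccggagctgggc
BTG1 (chr12:92145797-92146096, minus strand): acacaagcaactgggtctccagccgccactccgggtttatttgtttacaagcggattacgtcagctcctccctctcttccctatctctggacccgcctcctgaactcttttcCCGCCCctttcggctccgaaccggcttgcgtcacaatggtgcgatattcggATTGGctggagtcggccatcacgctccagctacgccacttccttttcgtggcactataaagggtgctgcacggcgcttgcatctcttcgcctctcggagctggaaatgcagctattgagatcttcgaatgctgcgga
ARRDC4 (chr15:97960453-97960752, plus strand): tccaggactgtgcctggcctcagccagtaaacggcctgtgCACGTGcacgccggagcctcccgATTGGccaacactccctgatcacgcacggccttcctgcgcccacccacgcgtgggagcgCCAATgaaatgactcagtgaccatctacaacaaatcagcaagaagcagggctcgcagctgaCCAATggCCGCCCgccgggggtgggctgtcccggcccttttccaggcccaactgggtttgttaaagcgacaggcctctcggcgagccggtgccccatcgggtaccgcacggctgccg
TXNIP (chr1:145996530-145996829, minus strand): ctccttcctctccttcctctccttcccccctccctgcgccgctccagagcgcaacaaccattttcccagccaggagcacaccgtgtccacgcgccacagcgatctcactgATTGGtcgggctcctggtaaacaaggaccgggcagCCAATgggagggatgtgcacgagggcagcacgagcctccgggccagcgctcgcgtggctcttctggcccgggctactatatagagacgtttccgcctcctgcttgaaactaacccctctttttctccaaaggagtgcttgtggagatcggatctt
DUSP1 (chr5:172771146-172771445, minus strand): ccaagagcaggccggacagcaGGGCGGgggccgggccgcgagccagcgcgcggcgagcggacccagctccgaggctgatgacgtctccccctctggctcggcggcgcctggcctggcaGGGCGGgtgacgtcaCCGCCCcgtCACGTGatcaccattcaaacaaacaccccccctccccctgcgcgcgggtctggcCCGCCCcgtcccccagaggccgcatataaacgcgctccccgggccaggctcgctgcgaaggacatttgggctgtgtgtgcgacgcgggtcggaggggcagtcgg
DUSP2 (chr2:96145391-96145690, minus strand): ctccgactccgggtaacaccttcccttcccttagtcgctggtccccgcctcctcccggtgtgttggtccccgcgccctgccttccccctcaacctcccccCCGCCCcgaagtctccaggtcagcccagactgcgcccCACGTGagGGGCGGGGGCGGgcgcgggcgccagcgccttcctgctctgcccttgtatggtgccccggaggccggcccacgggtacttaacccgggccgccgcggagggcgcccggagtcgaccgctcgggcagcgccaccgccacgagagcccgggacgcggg
The CDKN1A window held 4 GC boxes and neither of the other motifs. BTG1 held 1 CCAAT and 1 GC box and no E-box. DUSP1 and DUSP2 each held 1 E-box and no CCAAT, with 4 GC boxes in DUSP1 and 3 in DUSP2. ARRDC4 held 1 E-box, 3 CCAAT sequences and 1 GC box. TXNIP, in the first of its 2 windows, held 2 CCAAT sequences and neither an E-box nor a GC box.

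The libraries held 53065611 to 76958831 reads in genes, and 26759 to 28346 genes had at least 1 read. Reads of the 41 genes made up 0.668% to 0.9556% of a library. Samples that shared a replicate number deviated together from their group means, with a correlation across genes of 0.1672 to 0.6412 in the 9 same-numbered pairs. The other 18 pairs ran from -0.49 to 0.285, so the ranges overlapped. Their mean was -0.2041, but deviations within a group sum to 0. Positive same-numbered pairs therefore push that mean below 0 by themselves, and it is not separate evidence. The sample titles carry the replicate number but do not say what samples of 1 number share, and values within each number are given beside the pooled ones. Epithelial markers (9 genes) summed to 2730 to 4968 CPM (counts scaled to library size with TMM) over all libraries. The 5 endothelial and immune markers that were matched summed to at most 0.2121 CPM, with 4 of the 5 under 0.1 CPM everywhere. Another preset marker of these cells had no single match among the gene IDs and was left out. The 8 fibroblast markers summed to 437.2, 436.6 and 212.6 CPM with shG9a_1, 319.1, 434.1 and 151.3 CPM with shG9a_4, and 292.6, 349.7 and 169.8 CPM in shSCR, and 4 of the 8 passed the filter. Their sum was low in replicate 3 of every group, and within every replicate number it was higher with shG9a_1 than in shSCR. All 4 tested markers had log2 fold changes above 0 with both hairpins (median 0.36 with shG9a_1 and 0.13 with shG9a_4), and none was called. The part of these markers in the results below was not tested.

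EHMT2, the target of the hairpins, checked the labels. EHMT2 had 17.6, 22.6 and 21.0 CPM in the shG9a_1 libraries, 32.1, 27.2 and 33.5 CPM in the shG9a_4 libraries, and 51.1, 45.2 and 45.4 CPM in the shSCR libraries, so the 3 groups did not overlap. It fell by 1.21 on the log2 scale with shG9a_1 (SE 0.11, edgeR quasi-likelihood adjusted p = 0.00766). With shG9a_4 the log2 fold change was -0.61 (SE 0.11, edgeR adjusted p = 0.259), which did not pass the threshold of 0.05. It did pass with DESeq2 (adjusted p = 0.000843), with the edgeR likelihood ratio test (0.00298) and in the edgeR fit without the filter on low counts (2.24e-05). Between shG9a_1 and shG9a_4 it was -0.60, with an adjusted p of 1.00 in the edgeR quasi-likelihood test, 0.0368 in DESeq2, 0.0236 in the edgeR likelihood ratio test and 4.01e-05 in edgeR without the filter. Adjusted p-values cover all genes tested. The call for shG9a_1 was lost when shSCR replicate 1, shG9a_1 replicate 2 or shG9a_1 replicate 3 was left out, with adjusted p = 0.0611, 0.0513 and 0.0622 in edgeR, at log2 fold changes of -1.29 to -1.11 over all libraries left out in turn. MYC itself had 172, 175 and 199 CPM with shG9a_1, 186, 144 and 218 CPM with shG9a_4, and 186, 169 and 204 CPM in shSCR, with overlapping groups. Its log2 fold change for both hairpins together was -0.03 (SE 0.11, edgeR adjusted p = 0.999), and 0.04 without shSCR replicate 3 or without shG9a_4 replicate 2.

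The support by reads differed widely among the 41 genes. In shSCR, 9 of them averaged 100 CPM or more, 18 lay between 10 and 100 CPM, 6 between 1 and 10 CPM, 3 between 0.1 and 1 CPM and 5 under 0.1 CPM. Per kilobase of exon, TGFBI stood highest, at 753 CPM per kb in shG9a_1, 605 in shG9a_4 and 602 in shSCR. DUSP1 followed with 147, 129 and 122 CPM per kb in shG9a_1, shG9a_4 and shSCR, then CAV1 with 135, 124 and 115, CDKN1A with 114, 92.3 and 86.0, and THBS1 with 72.4, 54.3 and 52.8. The median of the 35 tested genes in shSCR was 7.97 CPM per kb.

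**Figure D1:**
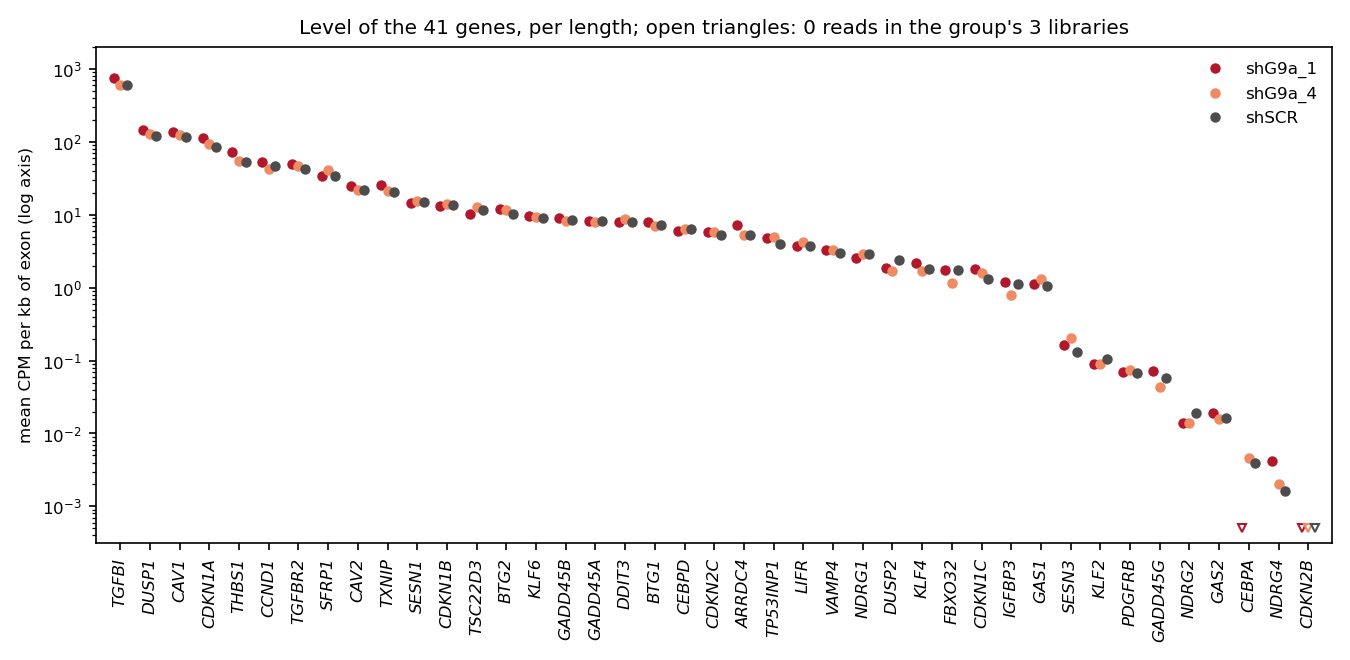
Mean CPM per kb of exon on a log axis for each of the 41 genes, in shG9a_1, shG9a_4 and shSCR, ordered by the shSCR level; open triangles mark groups with 0 reads in all 3 libraries. TGFBI stood highest, at 602 CPM per kb in shSCR, and CDKN2B had 0 reads in every group.

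The 6 genes that did not pass the filter were CDKN2B, GADD45G, GAS2, NDRG2, NDRG4 and CEBPA, none of which exceeded 0.261 CPM in any library. CDKN2B, the p15 inhibitor of CDK4 and CDK6 and a well-known target of MYC and MIZ1, had 0 reads in all 9 libraries, which allows up to 0.039 to 0.0559 CPM per library (3 reads; counting error only). Its neighbours on chromosome 9 were looked at after this was seen. CDKN2A and CDKN2B-AS1 also had 0 reads in all 9 libraries, MTAP had 0 to 2 reads, and DMRTA1 had 9 to 31 reads. MCF10A is known to lack a stretch of that chromosome arm with CDKN2A and CDKN2B. No DNA was measured in these libraries. No fold change could be given for CDKN2B.

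None of the 35 tested genes passed the threshold in any comparison. With edgeR, 0 of 35 were called for shG9a_1 against shSCR, where 7 of all 18435 genes were called (0.038%). For shG9a_4 against shSCR 0 of 35 were called, beside 5 genes in all (0.0271%), and for both hairpins against shSCR 0 of 35, beside 9 in all (0.0488%). Between shG9a_1 and shG9a_4 no member and no gene was called (0%). The counts at an unadjusted p under 0.05 follow with each hairpin. With the replicate number as a block the calls among all genes were 143 (0.776%), 14 (0.0759%), 34 (0.184%) and 0 (0%) in the same order of comparisons, and still 0 members were called. DESeq2 called 0 members in each comparison, beside 0.432%, 0.146%, 0.229% and 0.0112% of all genes. The edgeR likelihood ratio test called 0 members too, beside 0.228%, 0.0922%, 0.119% and 0.0271% of all genes. Of the settings run, only the edgeR fit without the filter on low counts called members, and it tested 40 members and 35793 genes. There 4 members passed for shG9a_1 (0.805% of all genes), 1 for shG9a_4 (0.137%), 0 for both hairpins (0.352%) and 3 between the hairpins (0.296%). They were CDKN1A (adjusted p = 0.00087), ARRDC4 (0.0184), TGFBI (0.0256) and THBS1 (6.7e-05) for edgeR in shG9a_1, and FBXO32 (edgeR adjusted p = 0.0204) in shG9a_4. Between the hairpins the unfiltered edgeR fit called ARRDC4 (adjusted p = 0.0459), FBXO32 (0.0146) and THBS1 (0.000818).

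The direction of the members was mostly upward with shG9a_1. Of the 35 tested genes, 26 had a log2 fold change above 0 and 9 below, with a median of 0.13, whereas all genes tested divided into 9262 above and 9173 below 0 with a median of 0.00. With shG9a_4, 25 were above and 10 below 0, with a median of 0.05, beside 9373 and 9062 of all genes. The median for shG9a_4 was -0.0065 without shG9a_4 replicate 2. The hairpins were set against the same shSCR libraries, so the 2 tallies are not independent. Within every replicate number, 16 members were higher with shG9a_1 (45.7%, beside 19.5% of all genes) and 1 was lower (2.86%, beside 19.6%). With shG9a_4, 9 members were higher within every replicate number (25.7%, beside 12.5% of all genes) and 4 were lower (11.4%, beside 12.5%). Set against the mean of shSCR, the median member stood 0.13, 0.14 and 0.10 higher on the log2 scale in the shG9a_1 libraries, and 0.04, 0.19 and 0.04 higher in the shG9a_4 libraries. The same value in the shSCR libraries was -0.07, 0.09 and -0.04. So 1 control library lay within the range of the shG9a_4 libraries, and all controls lay below the shG9a_1 libraries. The controls enter the mean they are set against, which pulls their values towards 0.

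**Figure D2:**
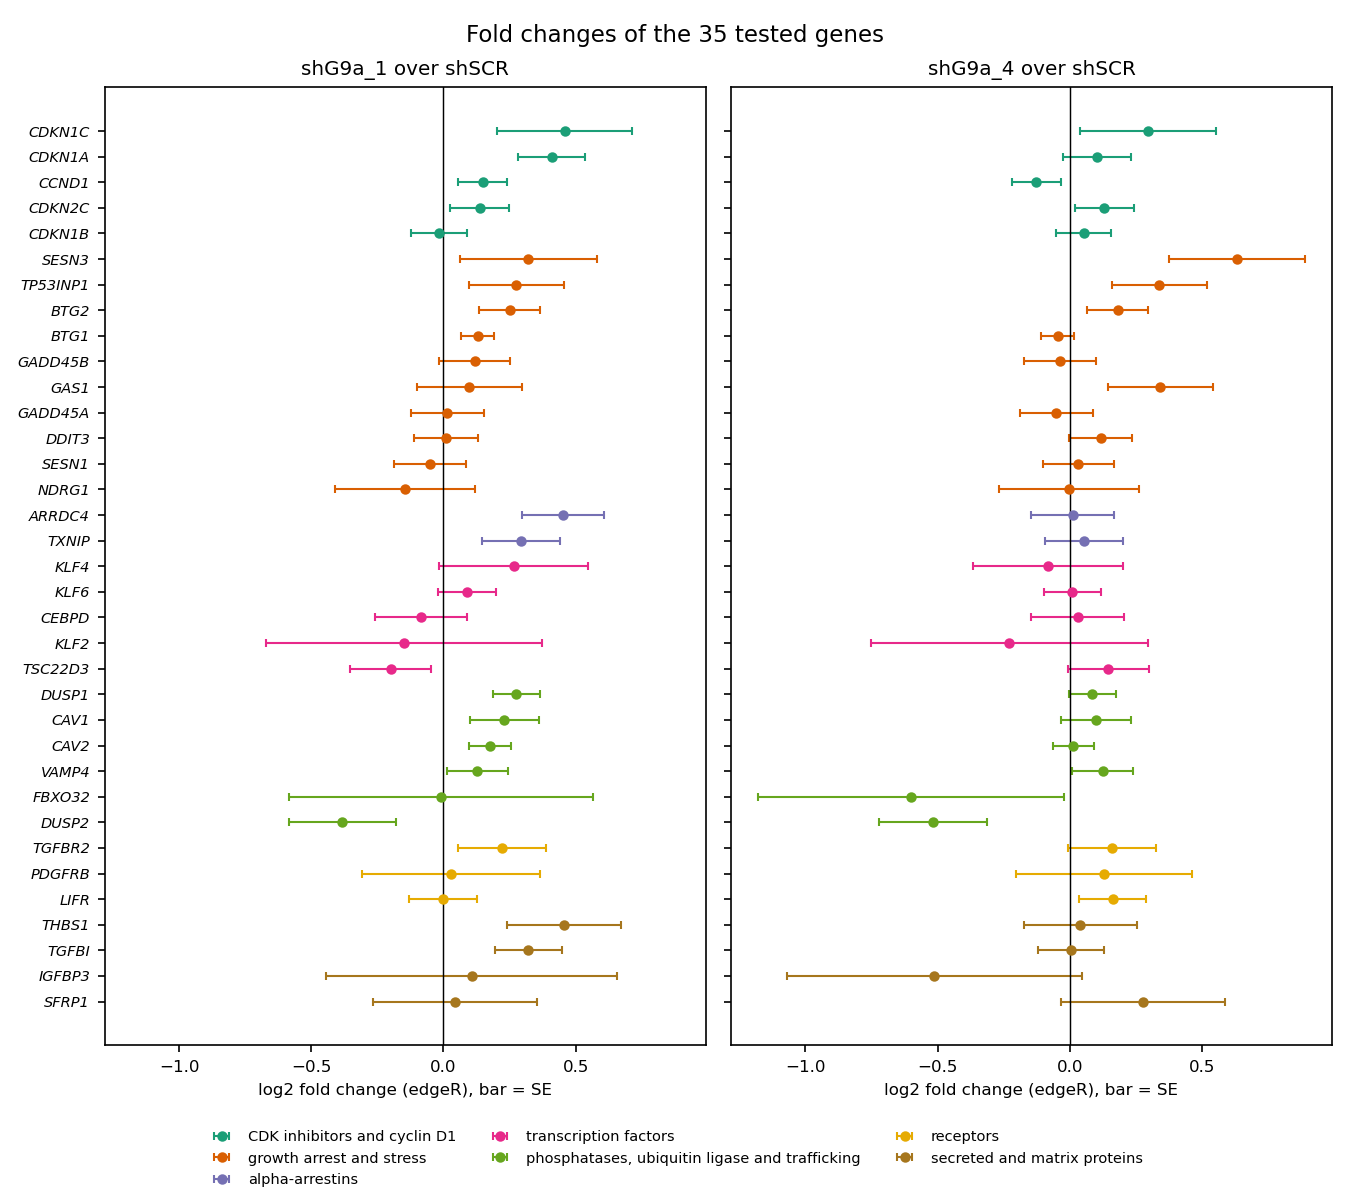
Fold changes on the log2 scale (points) with their standard errors (bars) for the 35 tested genes, shG9a_1 over shSCR on the left and shG9a_4 over shSCR on the right, coloured by role. With shG9a_1, 26 of 35 points lie right of 0 and with shG9a_4 25 do; none of the genes passed the adjusted threshold.

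At an unadjusted p under 0.05, 5 members were higher with shG9a_1 and 0 were lower, which is 14.3% and 0% of the 35, beside 4.34% and 3.15% of all genes. These were CDKN1A, ARRDC4, DUSP1, CAV2 and TGFBI. The number of higher members at this level was 2 without shSCR replicate 1 and 8 without shG9a_4 replicate 3. With the replicate block 12 members were higher and 0 lower, beside 8.1% and 5.15% of all genes. With shG9a_4, 1 member was higher (SESN3) and 1 lower (DUSP2), beside 1.4% and 0.971% of all genes, and with the block 5 were higher and 3 lower, beside 2.97% and 1.93%. For both hairpins together 2 were higher (CDKN1A and DUSP1) and 1 lower (DUSP2), beside 2.78% and 1.96% of all genes, and with the block 8 were higher and 2 lower, beside 5.95% and 3.61%. Libraries of shG9a_1 lay wholly above those of shSCR for 4 members (11.4%, beside 7.15% of all genes) and wholly below for 1 (2.86%, beside 7.54%). For shG9a_4 the counts were 2 members above (5.71%, beside 3.25%) and 1 below (2.86%, beside 3.18%).

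**Figure D3:**
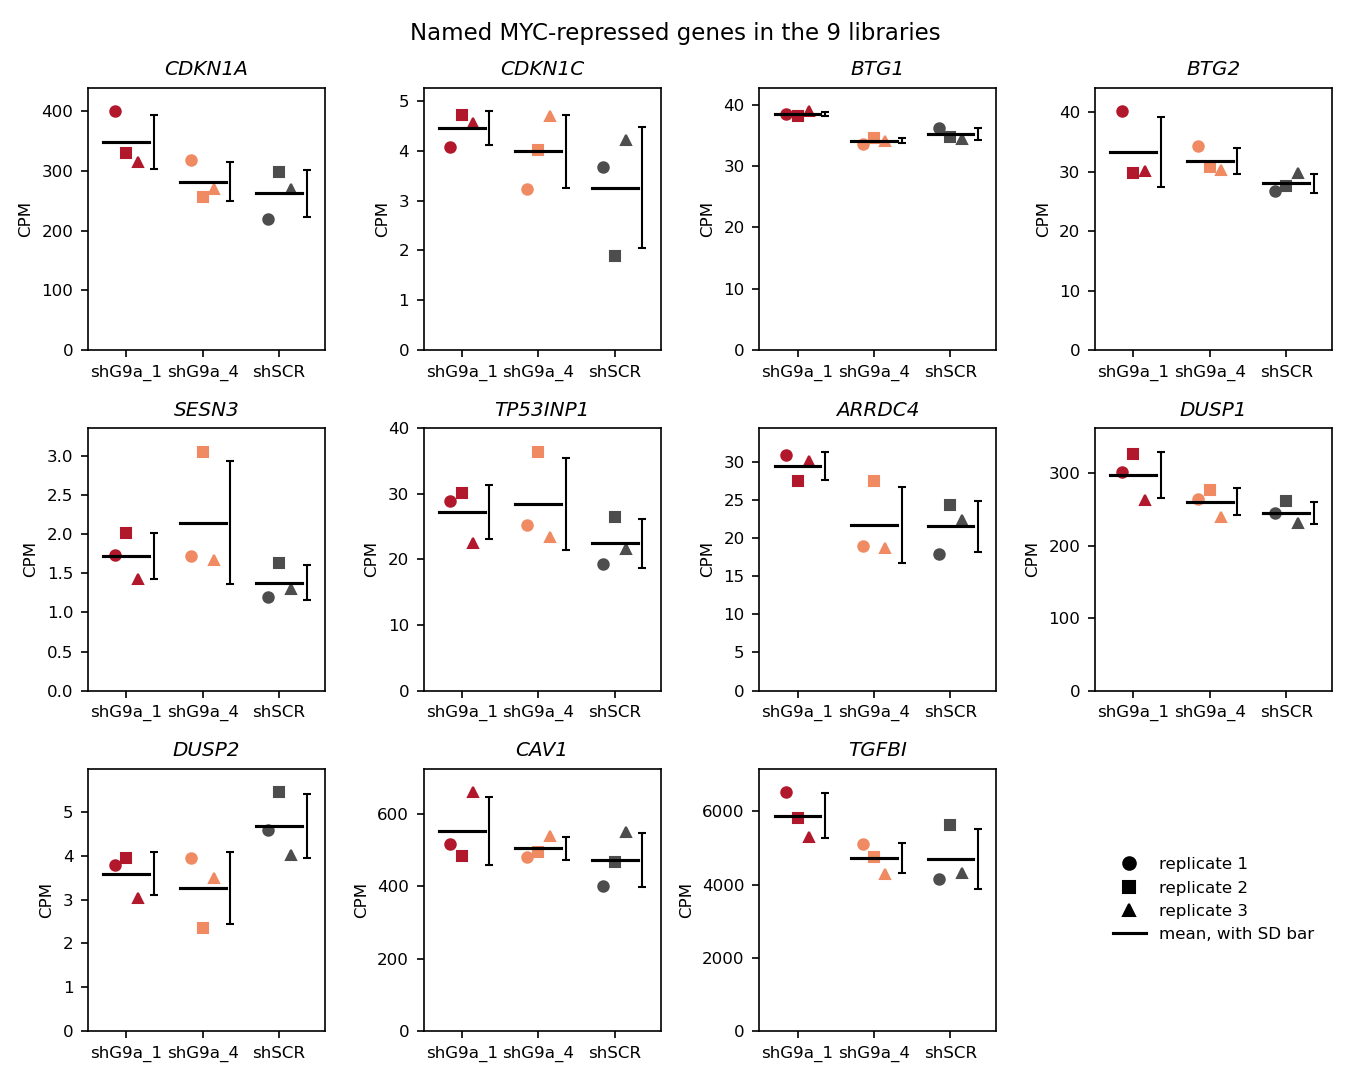
CPM in each of the 9 libraries (linear axes from 0) for the 11 genes with non-overlapping libraries or the smallest p-values; symbols give the replicate number, horizontal lines the group mean and vertical bars the SD (n = 3). The shG9a_1 points of CDKN1A, BTG1, ARRDC4 and DUSP1 all lie above the shSCR points, and the points of DUSP2 lie below them with both hairpins.

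Among the inhibitors of cyclin-dependent kinases, CDKN1A had the highest level per kb. It encodes p21, which binds cyclin-CDK complexes, is a classical p53 target and is repressed by MYC through MIZ1. CDKN1A had 399.8, 329.9 and 315 CPM with shG9a_1, 319, 257 and 269.6 CPM with shG9a_4, and 219, 298 and 269 CPM in shSCR. The 3 shG9a_1 libraries were above every shSCR library, and the shG9a_4 libraries overlapped the controls. The log2 fold change was 0.41 with shG9a_1 (SE 0.13, unadjusted p = 0.00883 and adjusted p = 0.592 in edgeR) and 0.10 with shG9a_4 (SE 0.13, edgeR adjusted p = 1.00). Within replicates 1, 2 and 3, shG9a_1 exceeded shSCR by 0.87, 0.14 and 0.22, so most of the pooled difference came from replicate 1, whose shSCR library was the lowest of all 9. Without shSCR replicate 1 the log2 fold change was 0.29 with shG9a_1 and -0.01 with shG9a_4.
CDKN1C, the p57 inhibitor, had 4.08, 4.72 and 4.57 CPM with shG9a_1, 3.24, 4.02 and 4.71 CPM with shG9a_4, and 3.68, 1.90 and 4.21 CPM in shSCR. The groups overlapped, and shSCR replicate 2 was the lowest of the 9 libraries. The log2 fold change was 0.46 with shG9a_1 (SE 0.26, edgeR adjusted p = 0.746). CDKN1B (p27) and CDKN2C (p18) had log2 fold changes of -0.02 and 0.14 with shG9a_1, and 0.05 and 0.13 with shG9a_4. CCND1, cyclin D1, which drives CDK4 and CDK6 and so opposes these inhibitors, had log2 fold changes of 0.15 with shG9a_1 and -0.13 with shG9a_4. Over shG9a_4 it was 0.28 higher in shG9a_1 (SE 0.09, unadjusted p = 0.0134 and adjusted p = 1.00 in edgeR).

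The growth arrest and stress genes formed the largest group, with 14 genes of which 10 were tested. Of these 8 were above and 2 below 0 with shG9a_1, 6 and 4 with shG9a_4, and none was called. BTG1, an antiproliferative cofactor of mRNA deadenylation, had 38.5, 38.2 and 38.9 CPM with shG9a_1, 33.7, 34.5 and 34.2 CPM with shG9a_4, and 36.3, 34.8 and 34.5 CPM in shSCR. Its shG9a_1 libraries differed by under 1 CPM and lay above the other 6, with a log2 fold change of 0.13 over shSCR (SE 0.06, edgeR adjusted p = 0.687) and 0.18 over shG9a_4 (SE 0.06, edgeR adjusted p = 1.00). Group took 92.4% of its spread over the 9 libraries, the highest share among the members. BTG2, its p53-induced relative, had 40.1, 29.8 and 30.2 CPM with shG9a_1, 34.3, 30.8 and 30.3 CPM with shG9a_4, and 26.8, 27.6 and 29.8 CPM in shSCR. The shG9a_4 libraries were all above the controls, while a shG9a_1 library fell just under the highest control. BTG2 was 0.25 higher on the log2 scale with shG9a_1 (SE 0.12, edgeR adjusted p = 0.669) and 0.18 with shG9a_4 (SE 0.12, edgeR adjusted p = 1.00).
TP53INP1, a p53-induced nuclear protein, had 28.9, 30.1 and 22.5 CPM with shG9a_1, 25.3, 36.4 and 23.5 CPM with shG9a_4, and 19.2, 26.5 and 21.6 CPM in shSCR. It was above shSCR within every replicate number with both hairpins, by 0.58, 0.18 and 0.05 for shG9a_1 and 0.39, 0.45 and 0.12 for shG9a_4, while the pooled groups overlapped. SESN3, a stress-induced inhibitor of mTORC1 signalling and a FOXO target, rested on few reads, with 1.73, 2.02 and 1.43 CPM with shG9a_1, 1.72, 3.06 and 1.67 CPM with shG9a_4, and 1.20, 1.64 and 1.30 CPM in shSCR. The shG9a_4 libraries lay above the controls, with a log2 fold change of 0.63 (SE 0.26, edgeR adjusted p = 1.00) that was 0.28 without shG9a_4 replicate 2. SESN1, GADD45A and DDIT3, which also answer to p53 or to stress, had log2 fold changes of -0.05, 0.02 and 0.01 with shG9a_1.

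The alpha-arrestins TXNIP and ARRDC4 limit glucose uptake and are targets of the glucose-sensing factor MondoA. ARRDC4 had 30.9, 27.4 and 30.1 CPM with shG9a_1, 19.0, 27.4 and 18.8 CPM with shG9a_4, and 17.9, 24.4 and 22.3 CPM in shSCR. It was higher in each shG9a_1 library than in any shSCR library, by 0.45 on the log2 scale (SE 0.16, unadjusted p = 0.0148 and adjusted p = 0.607 in edgeR), and the shG9a_4 libraries overlapped the controls (0.01, SE 0.16). In the authors' deposited table ARRDC4 had the highest posterior probability of differential expression among the members for shG9a_1, at 0.925 with a fold of 1.36. TXNIP had 96.9, 84.4 and 93.0 CPM with shG9a_1, 67.5, 99.0 and 65.9 CPM with shG9a_4, and 65.2, 84.5 and 74.1 CPM in shSCR. Its lowest shG9a_1 library and its highest shSCR library, both of replicate 2, were level, and the log2 fold change was 0.29 (SE 0.15, edgeR adjusted p = 0.714) with shG9a_1 and 0.05 (SE 0.15) with shG9a_4. Both genes were higher in replicate 2 than in the other replicates of shG9a_4.

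The 2 phosphatases had fold changes of opposite sign. DUSP1, which inactivates MAP kinases and is an immediate early gene, had 302, 327 and 263 CPM with shG9a_1, 264, 276 and 239.7 CPM with shG9a_4, and 244, 261 and 231 CPM in shSCR. Each shG9a_1 library was above every control, and within replicates 1, 2 and 3 shG9a_1 exceeded shSCR by 0.30, 0.32 and 0.19 and shG9a_4 by 0.12, 0.08 and 0.05. The log2 fold change was 0.28 with shG9a_1 (SE 0.09, unadjusted p = 0.0104 and adjusted p = 0.592 in edgeR). With the replicate block its edgeR adjusted p for shG9a_1 was 0.0513, the nearest to the threshold of any member in the filtered edgeR fits.
DUSP2, a nuclear phosphatase of ERK, had 3.79, 3.96 and 3.03 CPM with shG9a_1, 3.95, 2.36 and 3.50 CPM with shG9a_4, and 4.59, 5.44 and 4.00 CPM in shSCR. All 6 knockdown libraries lay below all 3 control libraries, but the highest of them (3.96 CPM) was close to the lowest control (4.00 CPM). The share of all genes with this pattern for both hairpins was not counted. The log2 fold changes were -0.38 with shG9a_1 (SE 0.20, edgeR adjusted p = 0.727), -0.52 with shG9a_4 (SE 0.20, edgeR adjusted p = 1.00) and -0.45 for both hairpins (SE 0.17, unadjusted p = 0.0246 and adjusted p = 0.999 in edgeR).
CAV1 and CAV2 encode caveolins, the coat proteins of caveolae. CAV1 had 515, 484 and 659 CPM with shG9a_1, 479.9, 494 and 539.6 CPM with shG9a_4, and 399.7, 465 and 548 CPM in shSCR, with overlapping groups and a log2 fold change of 0.23 (SE 0.13, edgeR adjusted p = 0.750) with shG9a_1. CAV2 had a log2 fold change of 0.18 with shG9a_1 (SE 0.08, unadjusted p = 0.0471 and adjusted p = 0.658 in edgeR) and 0.01 with shG9a_4.

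Of the genes of the matrix and its signals, TGFBI, which encodes a secreted TGF-beta-induced protein, had 6521, 5814 and 5297 CPM with shG9a_1, 5115, 4764 and 4290.0 CPM with shG9a_4, and 4151, 5641 and 4320.0 CPM in shSCR. Only shSCR replicate 2 reached the range of the shG9a_1 libraries. The log2 fold change was 0.32 with shG9a_1 (SE 0.13, unadjusted p = 0.0266 and adjusted p = 0.628 in edgeR) and 0.01 with shG9a_4, and 0.32 for shG9a_1 over shG9a_4 (SE 0.13, unadjusted p = 0.0289 in an edgeR fit). THBS1, the matrix protein thrombospondin-1, had 617, 476 and 897 CPM with shG9a_1, 527, 416 and 548 CPM with shG9a_4, and 390.3, 469 and 592 CPM in shSCR. Within replicates 1, 2 and 3 it was 0.66, 0.02 and 0.60 higher in shG9a_1 than in shSCR, and the pooled log2 fold change of 0.46 (SE 0.21, edgeR adjusted p = 0.681) was 0.18 without shG9a_1 replicate 3. TGFBR2, a receptor subunit for TGF-beta, was above shSCR within every replicate number, by 0.29, 0.16 and 0.23 with shG9a_1 and 0.20, 0.19 and 0.09 with shG9a_4. The pooled log2 fold change of TGFBR2 with shG9a_1 was 0.22 (SE 0.17, unadjusted p = 0.214 and adjusted p = 0.824 in edgeR). With the replicate block its edgeR unadjusted p was 0.00196 for shG9a_1 (adjusted p = 0.102). The receptors PDGFRB and LIFR had log2 fold changes of 0.03 and 0.00 with shG9a_1, and 0.13 and 0.16 with shG9a_4. PDGFRB rested on only 19 to 47 reads per library (SE 0.34 with shG9a_1 and 0.33 with shG9a_4).

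Between the hairpins, 5 members were higher in shG9a_1 than in shG9a_4 at an unadjusted p under 0.05 (CDKN1A, CCND1, BTG1, ARRDC4 and TGFBI), beside 1.9% of all genes, and 1 was lower (TSC22D3), beside 2.19%. The number of higher members was 3 without shG9a_4 replicate 1 and 2 without shG9a_4 replicate 3. With the replicate block the counts were 11 higher and 2 lower, beside 4.82% and 3.97% of all genes. The smallest edgeR adjusted p among the members was 1.00 with the filter on low counts; without that filter ARRDC4, FBXO32 and THBS1 passed, at the values given above. TSC22D3, the glucocorticoid-induced leucine zipper, had 46.2, 51.8 and 46.7 CPM in shG9a_1 and 58.7, 62.5 and 62.5 CPM with shG9a_4, with 72.6, 42.9 and 50.6 CPM in shSCR spanning both. The medium held hydrocortisone in every group.

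For most members the replicate number took a larger share of the spread than the hairpin did. Number exceeded group in 22 of the 35 tested genes, and the same count was not made over all genes. The median member had 21.9% of its sum of squares of log2 CPM between groups, 41.8% between numbers and 26.6% in neither, beside medians of 18.8%, 33.9% and 35.6% over all genes tested. So number also had the larger median share over all genes. The 7 members with the largest share by number were FBXO32 (90.6%), NDRG1 (87.0%), SFRP1 (86.1%), IGFBP3 (85.0%), SESN1 (84.5%), TGFBR2 (81.9%) and KLF4 (79.8%).

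**Figure D4:**
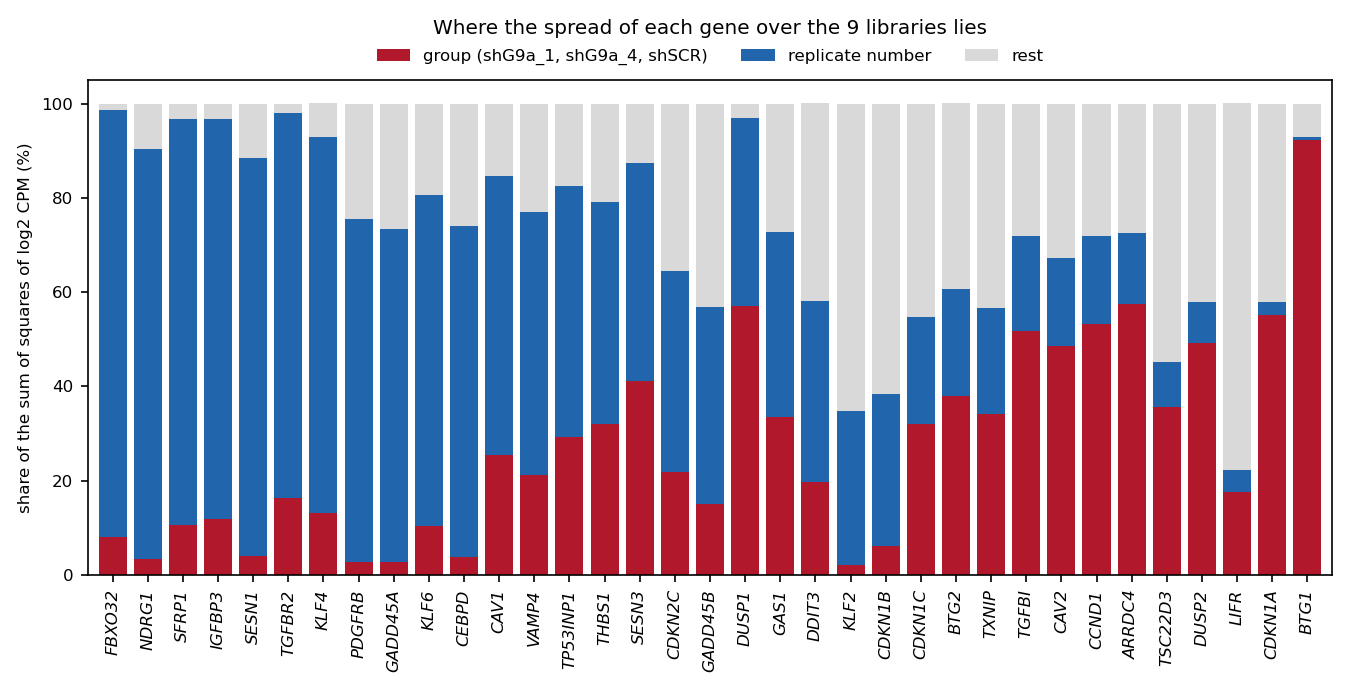
Share of each gene's sum of squares of log2 CPM over the 9 libraries that lies between the 3 groups, between the 3 replicate numbers, and in the rest, as stacked bars in percent for the 35 tested genes. Replicate number takes 90.6% for FBXO32 at the left, and group takes 92.4% for BTG1 at the right.

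FBXO32, the muscle-atrophy ubiquitin ligase subunit atrogin-1, had 4.70, 14.1 and 19.4 CPM with shG9a_1, 3.74, 10.4 and 11.3 CPM with shG9a_4, and 4.57, 15.7 and 18.2 CPM in shSCR, so replicate 1 was low in every group. Its pooled log2 fold change with shG9a_4 was -0.60 (SE 0.58, edgeR unadjusted p = 0.323). Within replicates 1, 2 and 3 it was 0.26, 0.57 and 0.66 lower in shG9a_4 than in shSCR. With the replicate block its edgeR unadjusted p was 0.000434 for shG9a_4 (adjusted p = 0.226). SFRP1, a secreted antagonist of Wnt ligands, had 135, 124 and 234 CPM with shG9a_1, 158, 165 and 257 CPM with shG9a_4, and 131, 112 and 236 CPM in shSCR, with replicate 3 high in every group. Within numbers it was 0.26, 0.57 and 0.12 higher in shG9a_4 than in shSCR (edgeR with the block, unadjusted p = 0.00136 and adjusted p = 0.379). Without the block its log2 fold change with shG9a_4 was 0.28 (SE 0.31, edgeR unadjusted p = 0.389).
IGFBP3, which binds insulin-like growth factors, had 2.82, 7.98 and 5.61 CPM with shG9a_1, 1.80, 5.97 and 2.95 CPM with shG9a_4, and 2.08, 9.13 and 3.97 CPM in shSCR, with replicate 2 high in every group. KLF4, a zinc-finger factor of epithelial differentiation, had 9.66, 8.88 and 5.11 CPM with shG9a_1, 6.82, 7.35 and 4.41 CPM with shG9a_4, and 6.35, 8.67 and 4.64 CPM in shSCR. Replicate 3 of KLF4 was the lowest of each group. The other transcription factors KLF2, KLF6 and CEBPD had log2 fold changes of -0.15, 0.09 and -0.08 with shG9a_1, and -0.23, 0.01 and 0.03 with shG9a_4. KLF2 rested on only 6 to 19 reads per library (SE 0.52 with each hairpin).

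**Figure D5:**
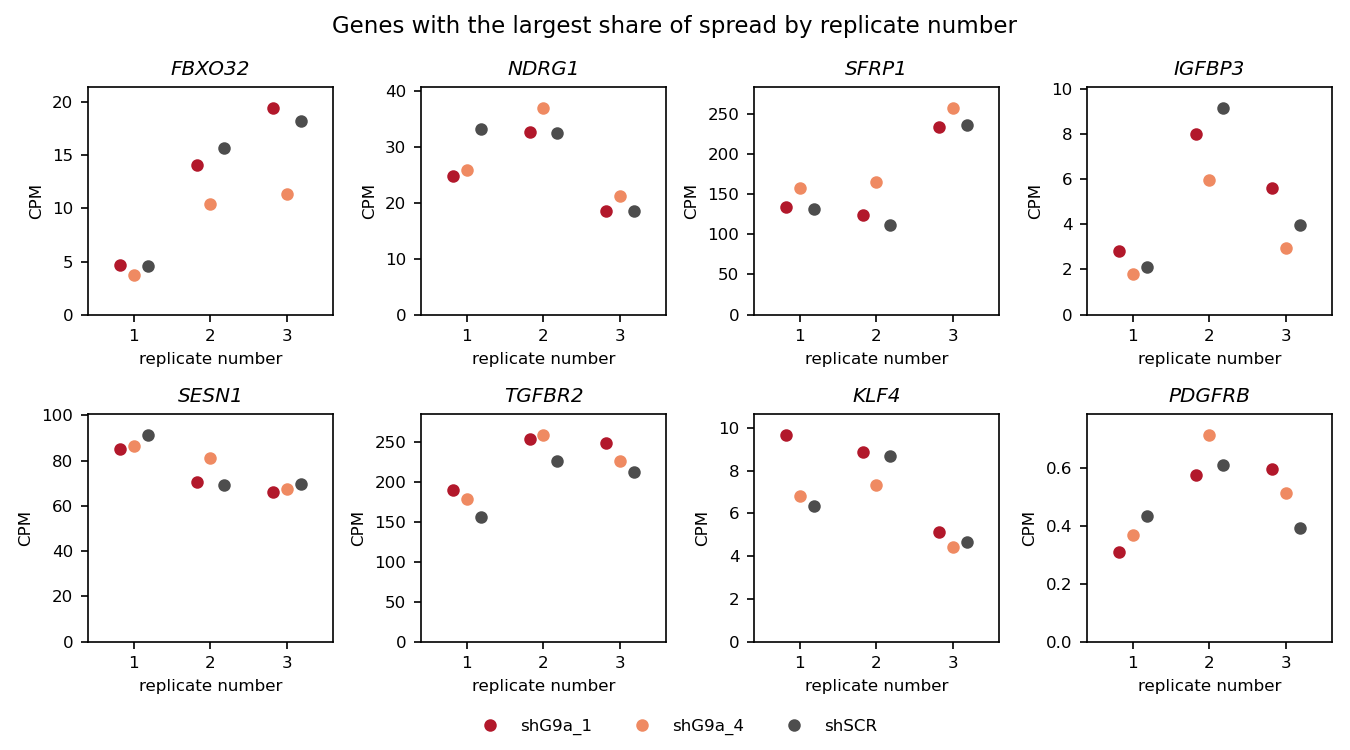
CPM against replicate number (a label without order) in shG9a_1, shG9a_4 and shSCR, for the 8 genes with the largest share of spread by number; each point is 1 library. FBXO32 is at 3.74 to 4.70 CPM in all libraries of replicate 1 and at 10.4 to 19.4 CPM in the others.

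Genes around the members were counted from lists of textbook regulators and targets. In the MYC network and its partners in repression, 24 of 25 genes were tested, and EHMT2 was the only gene called by the edgeR quasi-likelihood test, for shG9a_1 and for both hairpins (-0.91, SE 0.09, edgeR adjusted p = 0.0100). For both hairpins its edgeR adjusted p was 0.116 without shSCR replicate 1 and 0.0600 without shSCR replicate 3. Among 18 p53 targets outside the set, 16 were above and 2 below 0 with shG9a_1, with a median log2 fold change of 0.11. With shG9a_4, 13 were above and 5 below 0, with a median of 0.05. None was called in the main test with either hairpin. TP53I3, a p53-induced oxidoreductase, had 90.4, 92.5 and 82.3 CPM with shG9a_1, 67.9, 70.8 and 61.9 CPM with shG9a_4, and 49.1, 70.3 and 60.8 CPM in shSCR. Its shG9a_1 libraries all lay above the controls, as did those of 7.15% of all genes tested. Its edgeR adjusted p for shG9a_1 was 0.313, and 0.0301 with the replicate block. Of 15 TGF-beta response genes, 11 were above and 4 below 0 with shG9a_1, and 5 above and 10 below with shG9a_4, and none was called. With the replicate block the counts were 11 and 4 with shG9a_1, and 8 and 7 with shG9a_4 (median log2 fold change 0.0022, and -0.035 without the block). Of 11 tested immediate early genes, 8 were above 0 with shG9a_1 and 4 with shG9a_4. JUN had 20.6, 22.4 and 25.1 CPM with shG9a_1, 17.9, 14.2 and 21.6 CPM with shG9a_4, and 14.4, 15.4 and 16.2 CPM in shSCR, with an edgeR adjusted p for shG9a_1 of 0.461, and 0.0434 with the block.
The 9 other activators, the 7 glucocorticoid response genes and the 8 FOXO targets held no called gene. The smallest p for both hairpins in these lists belonged to ATF4 (log2 fold change -0.18, SE 0.08, edgeR adjusted p = 0.999), FKBP5 (0.15, SE 0.08, edgeR adjusted p = 0.999) and CCNG2 (0.28, SE 0.10, edgeR adjusted p = 0.977). Of the 9 breast epithelial markers, 6 were above and 3 below 0 with shG9a_1 (lowest -0.605), and 9 and 0 with shG9a_4. For both hairpins 8 were above and 1 below 0 (lowest -0.289). Among them KRT14, a basal keratin, was 0.78 higher for both hairpins (SE 0.31, edgeR adjusted p = 0.999). Its edgeR adjusted p was 0.00261 with the block. With each library left out in turn, its log2 fold change ranged from 0.504 to 1.12. PDPN had the smallest p of the fibroblast markers, at a log2 fold change of 0.30 (SE 0.13, edgeR adjusted p = 0.999).

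The authors' deposited table held 32 of the 41 genes. No member had a posterior probability over 0.95 there, while 322 of 10748 genes with a value did for shG9a_1 (3%) and 66 of 10745 for shG9a_4 (0.614%). The highest member value for shG9a_4 was 0.0759, for BTG2. Of 29 members in both that table and the tests here, all 29 had the same direction for shG9a_1 and 28 for shG9a_4. TGFBI, with a fold change near 1 there, was the exception for shG9a_4. That table rests on these same libraries.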

How the data were processed

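Total RNA depleted of ribosomal RNA was sequenced as stranded paired-end 75-base reads from 9 MCF10A libraries in 3 groups of 3, per the labels' protocols. The authors deposited read counts per gene. STAR 2.5.2a, edgeR 3.14.0 and the builds GRCh37 and hg19 are named in the submitters' processing notes, with no role given. Counts on the reverse strand were used (94.74% to 95.06% of reads assigned to either strand). Reads that mapped to several places (4.575% to 5.488%), to no gene (12.17% to 15.42%) or to several genes (2.494% to 2.68%), and unmapped reads (2.75% to 4.34%), stayed out of library sizes. The authors' deposited tables also give, per gene, a posterior probability of differential expression (a score between 0 and 1) and a fold change as a ratio, and these served for description.

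Symbols were matched through a table of Ensembl IDs. The main test was edgeR 4.0.16's quasi-likelihood test (R 4.3.3) on the counts of all 9 libraries with TMM scaling and edgeR's own filter on low counts, with Benjamini-Hochberg adjustment over all genes and a threshold of 0.05. CPM values use TMM-scaled library sizes, and log2 CPM for single libraries adds 0.5. Levels per kb use exon lengths of GENCODE 29. The shares of spread come from sums of squares over group and number. The fit was also run on simulated counts without any effect of replicate number, so that run does not cover the pairing seen in these libraries. Alternatives were DESeq2 1.42.0, the likelihood ratio test, other scaling, no filter, unstranded counts, the replicate block, only the groups compared, and each library left out. Same-numbered samples correlated in every pair (0.1672 to 0.6412), so the numbers were taken to pair the samples. The other pairs reached up to 0.285, so this pairing is an assumption. The series' design text calls the samples biological replicates. Genes named in full were those with non-overlapping libraries, the 10 smallest p-values for both hairpins, and any called member. From each other list the called genes, or else the gene with the smallest p for both hairpins, were named, and 1 of these is not reported here. The members and lists were chosen with earlier results of these data known.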

Additional observations from a re-analysis of the deposited data

How the results depend on the processing

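Counts of called genes depended on the test. For shG9a_1 against shSCR, shG9a_4 against shSCR, both hairpins against shSCR and shG9a_1 against shG9a_4, the number of all genes called was 7, 5, 9 and 0 in the main analysis, 68, 20, 36 and 4 with DESeq2, 42, 17, 22 and 5 with the likelihood ratio test, 288, 49, 126 and 106 without the filter, and 143, 14, 34 and 0 with the replicate block. For shG9a_4 it was 1 with unstranded counts and 0 with only the groups compared. The members called without the filter were 4 for shG9a_1, 1 for shG9a_4 and 3 between the hairpins; no other setting called a member. The causes were not tested. With each library left out in turn, the genes called ranged from 0 to 10 for shG9a_1, 0 to 7 for shG9a_4 and 0 to 11 for both hairpins, and the median log2 fold change of the members from 0.11 to 0.18 for shG9a_1 and from -0.0065 to 0.12 for shG9a_4; a group left with 2 libraries is assumed to vary like the others. The 6 members under the filter were left out of the main test for their few reads. Without the filter all of them but CDKN2B were tested, and none of them was called.

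The sign of 36 of 89 member fold changes turned in at least 1 of up to 16 settings, and only 2 of them were 0.2 or larger in the main analysis. The 89 held all 35 tested members for each hairpin against shSCR. For both hairpins and between the hairpins they held only members picked for small p-values, non-overlapping libraries or a call. All 36 turned signs were among the fold changes of a single hairpin against shSCR. LIFR for shG9a_1 was 0.0019 with RLE size factors, 0.0016 with DESeq2 and 0.0046 with unstranded counts. For shG9a_4, TGFBI was -0.00038 with RLE and -0.0040 with unstranded counts, KLF6 -0.00071 with unstranded counts, and NDRG1 0.0032 with the replicate block, which changed no call among the members. With a library left out, log2 fold changes with a turned sign ranged for shG9a_1 as follows: CDKN1B from -0.081 to 0.11, GADD45A from -0.085 to 0.13, GADD45B from -0.010 to 0.26, GAS1 from -0.028 to 0.34, DDIT3 from -0.075 to 0.13, SESN1 from -0.16 to 0.093, NDRG1 from -0.37 to 0.034, KLF2 from -0.50 to 0.39, KLF6 from -0.015 to 0.15, CEBPD from -0.24 to 0.11, TSC22D3 from -0.35 to 0.045, FBXO32 from -0.45 to 0.39, PDGFRB from -0.12 to 0.28, LIFR from -0.084 to 0.081, SFRP1 from -0.30 to 0.44 and IGFBP3 from -0.27 to 0.86. For shG9a_4 they ranged as follows: CDKN1A from -0.011 to 0.20, CDKN1B from -0.025 to 0.18, GADD45A from -0.13 to 0.057, GADD45B from -0.14 to 0.097, SESN1 from -0.047 to 0.18, NDRG1 from -0.26 to 0.16, TXNIP from -0.17 to 0.16, ARRDC4 from -0.20 to 0.11, KLF2 from -0.64 to 0.31, KLF4 from -0.29 to 0.17, KLF6 from -0.094 to 0.070, CEBPD from -0.14 to 0.22, TSC22D3 from -0.018 to 0.39, CAV1 from -0.0058 to 0.21, CAV2 from -0.030 to 0.056, PDGFRB from -0.15 to 0.35, LIFR from -0.0069 to 0.28, TGFBI from -0.076 to 0.15, THBS1 from -0.093 to 0.20 and IGFBP3 from -1.12 to 0.23. MYC for both hairpins ranged from -0.098 to 0.041.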
